A study of Mus musculus with 9 samples.

Results

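The genes described here are Myc, its DNA-binding partner Max and 43 genes whose products build ribosomes, followed across all 9 libraries of the series. They are a list of gene symbols, put together with earlier results of these data known, and no measured value enters the rule. All 45 were among the 16500 genes that the expression file lists. The libraries were made from primary CD4+ T cells, taken from C57BL/6 mice and transduced with a retrovirus, and fall into 3 groups of 3. Cells in the NFAT2-CA group received a vector for a constitutively active form of the calcium-regulated transcription factor NFAT2, the product of Nfatc1. Cells in the NFAT2-CARIT group received the same kind of active NFAT2 with further substitutions, known as RIT, that impair its cooperation with AP-1, the Fos and Jun dimers that bind DNA beside it. Cells in the Control group received the CTRL vector, so all 3 groups share strain, cell type and transduction. Both NFAT2 forms were overexpressed from a vector. The labels give no age or sex of the mice, no time after transduction and no sort for transduced cells. They do not say whether the 3 replicates of a group came from separate mice or cultures, so the p-values below measure only the spread between these libraries.

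Myc is a basic helix-loop-helix transcription factor that binds the E-box CACGTG as a dimer with Max and raises transcription of genes for growth. In T cells it is known for its rapid induction after antigen receptor signalling and for driving the growth that precedes division. Ribosome production is among its best-known targets. It begins in the nucleolus, where RNA polymerase I copies ribosomal DNA into a precursor RNA. Box C/D and box H/ACA small nucleolar ribonucleoproteins (snoRNPs) modify that RNA, and large sets of assembly factors then cut and fold it into the small and the large subunit.

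Expression is given in CPM, in which each library is scaled to 1 common total. Depth, estimated from the steps between low values, was 19852800 to 38107800 reads per library, so a gene at 10 CPM rested on 199 to 381 reads. Nfatc1, the gene carried by the active vectors, had 342, 336 and 395 CPM in the NFAT2-CA libraries, 240.5, 245 and 253 CPM in the NFAT2-CARIT libraries and 224, 228 and 188 CPM in the Control libraries. Its log2 fold change was 0.74 ± 0.08 with NFAT2-CA over Control (limma, adjusted p = 2.6e-07), 0.21 ± 0.08 with NFAT2-CARIT over Control (adjusted p = 0.021) and -0.53 ± 0.08 with NFAT2-CARIT over NFAT2-CA (adjusted p = 7.2e-05). The 3 groups did not overlap in Nfatc1, and transcripts of the vector and of the cell's own gene cannot be told apart in these values. The 8 listed markers of CD4 T cells summed to 7011 to 7536 CPM with NFAT2-CA, 6650 to 6770 CPM with NFAT2-CARIT and 9938 to 10641 CPM with the Control vector. Of these 8, 4 were higher and 2 lower with NFAT2-CA over Control, and 2 were higher and 2 lower with NFAT2-CARIT over Control (limma), while Cd4 itself lay between 1504 and 1698 CPM in all 9 libraries. Of the 8, Thy1 differed most, with 658, 657 and 632 CPM with NFAT2-CA, 648, 660.2 and 662 CPM with NFAT2-CARIT and 4521, 4733 and 4989.8 CPM with the Control vector. The summed CPM of the 2 CD8 T cell markers was 28.4 to 30.8 with NFAT2-CA, 22.6 to 24.0 with NFAT2-CARIT and 12.5 to 13.7 with the Control vector. The 4 listed B cell markers, mostly Ighm, summed to 206 to 211 CPM with NFAT2-CA, 182 to 205 CPM with NFAT2-CARIT and 412 to 423 CPM with the Control vector. The 5 listed myeloid and dendritic cell markers summed to 13.9 to 19.6 CPM with NFAT2-CA, 16.3 to 17.8 CPM with NFAT2-CARIT and 37.4 to 43.2 CPM with the Control vector, and the 2 listed NK cell markers to 2.51 to 2.91 CPM with NFAT2-CA, 1.70 to 2.25 CPM with NFAT2-CARIT and 3.82 to 4.37 CPM with the Control vector. Erythroid and platelet markers were not analysed here. The part that these shifts have in the results below was not tested. In bulk RNA, fewer cells of a type and less RNA of a gene per cell cannot be told apart.

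Myc and most of the ribosome biogenesis genes were lower with both active vectors. The mean CPM of Myc was 2.92 times lower with NFAT2-CA and 3.46 times lower with NFAT2-CARIT than with the Control vector, Polr1b, a catalytic subunit of RNA polymerase I, fell furthest, and Max was the only member that rose. Of the 40 members tested, 21 were lower and 0 higher with NFAT2-CARIT over NFAT2-CA in limma, beside 18.9% of all genes tested lower and 15.1% higher. That count was 13 without NFAT2-CARIT replicate 2 (14.5% of all genes tested lower) and 0 in the authors' deposited table (1.65% of all genes lower). The log2 fold changes of Npm1 (nucleophosmin) and Ncl (nucleolin), which encode abundant nucleolar proteins, lay between -0.24 and -0.06 with either vector over Control. In 41 of the 45 members the mean CPM was lowest with NFAT2-CARIT, intermediate with NFAT2-CA and highest with the Control vector. In 3 further members both vectors lay below Control with NFAT2-CA lowest, and in Max both lay above it. These are orders of means, and the share of all genes with each order was not computed. In limma, 20 members were called lower in all 3 comparisons. The share of all genes with that pattern was not computed either, and the 3 comparisons share libraries, so these calls are not independent.

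**Figure D1:**
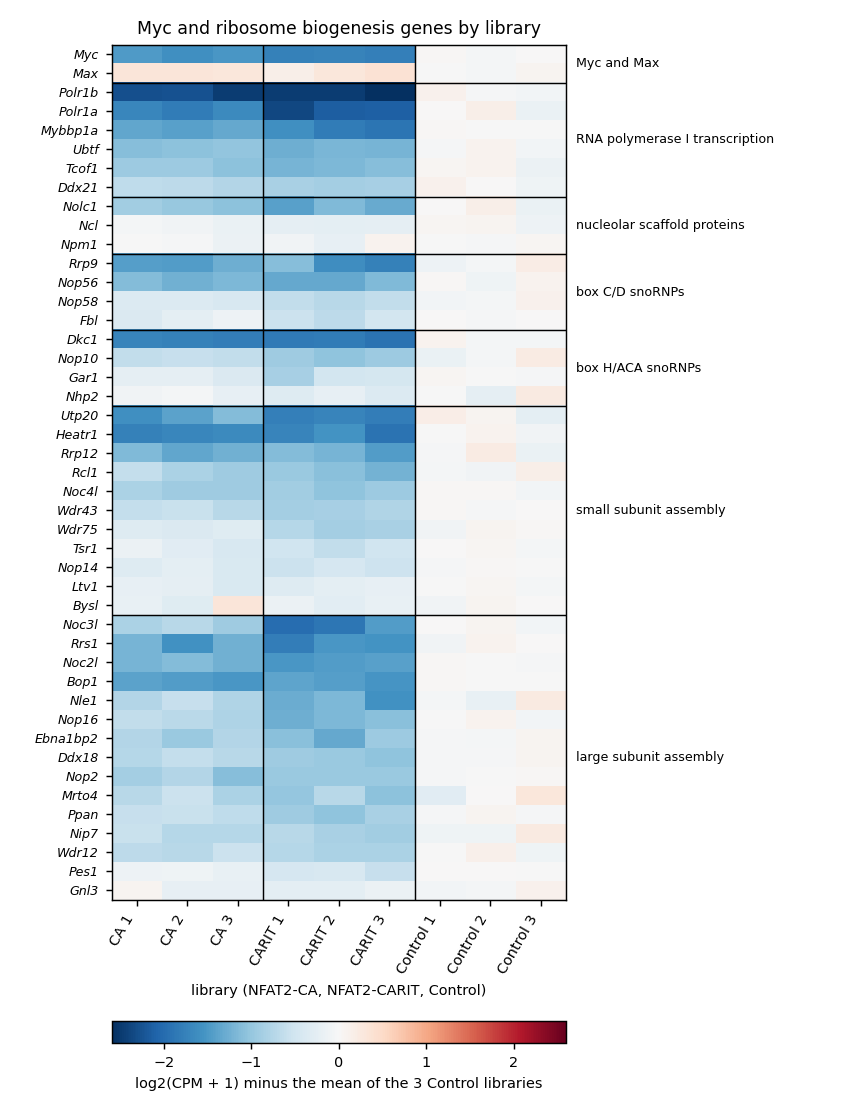
Heat map of the 45 members (rows, grouped by role) in the 9 libraries (columns, NFAT2-CA, NFAT2-CARIT and Control from left to right). Colour gives log2(CPM + 1) minus the mean of the 3 Control libraries, blue below it and red above it. The median member lies at -0.72, -0.73 and -0.78 in the NFAT2-CA libraries, at -0.96, -1.04 and -0.97 in the NFAT2-CARIT libraries and between -0.014 and -0.0013 in the Control libraries, and Max is the row above its Control level in all 6 NFAT2 libraries.

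Myc (mm10, chr15:61985391-61990374, plus strand) had 37.8, 34.8 and 36.9 CPM in the NFAT2-CA libraries, 30.9, 31.2 and 30.2 CPM in the NFAT2-CARIT libraries and 109, 103 and 108 CPM in the Control libraries. The NFAT2-CARIT libraries were lowest, the NFAT2-CA libraries lay just above them without overlap, and every Control library was far above both. Its mean was 36.5 ± 1.54 CPM with NFAT2-CA and 107 ± 3.54 CPM with the Control vector (SD, n = 3 each). With NFAT2-CARIT the mean was 30.8 ± 0.543 CPM (SD, n = 3). On the scale of log2(CPM + 1), with its standard error, Myc changed by -1.52 ± 0.06 with NFAT2-CA over Control (limma, adjusted p = 1.2e-12) and by -1.76 ± 0.06 with NFAT2-CARIT over Control (adjusted p = 1.7e-13). The difference between the active forms was small, -0.24 ± 0.06 with NFAT2-CARIT over NFAT2-CA (limma, adjusted p = 0.0057). In the authors' deposited table that last difference was -0.25 with an FDR of 1, so it passed in limma only.

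Max (mm10, chr12:76937269-76962201, minus strand), the obligate dimer partner of Myc that also pairs with the Myc antagonists of the Mxd family, moved the other way. It had 112, 113 and 111 CPM in the NFAT2-CA libraries, 100.2, 111 and 118 CPM in the NFAT2-CARIT libraries and 89.1, 86.9 and 95.3 CPM in the Control libraries. All 6 NFAT2 libraries were above all 3 Control libraries, and the NFAT2 groups overlapped each other. Max rose by 0.31 ± 0.06 with NFAT2-CA (limma, adjusted p = 0.00043) and by 0.27 ± 0.06 with NFAT2-CARIT over Control (adjusted p = 0.001), and the difference between them was -0.03 ± 0.06 (adjusted p = 0.73). In the authors' deposited table the FDR of Max was 0.11 with NFAT2-CA and 0.14 with NFAT2-CARIT over Control, so neither passed there.

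**Figure D2:**
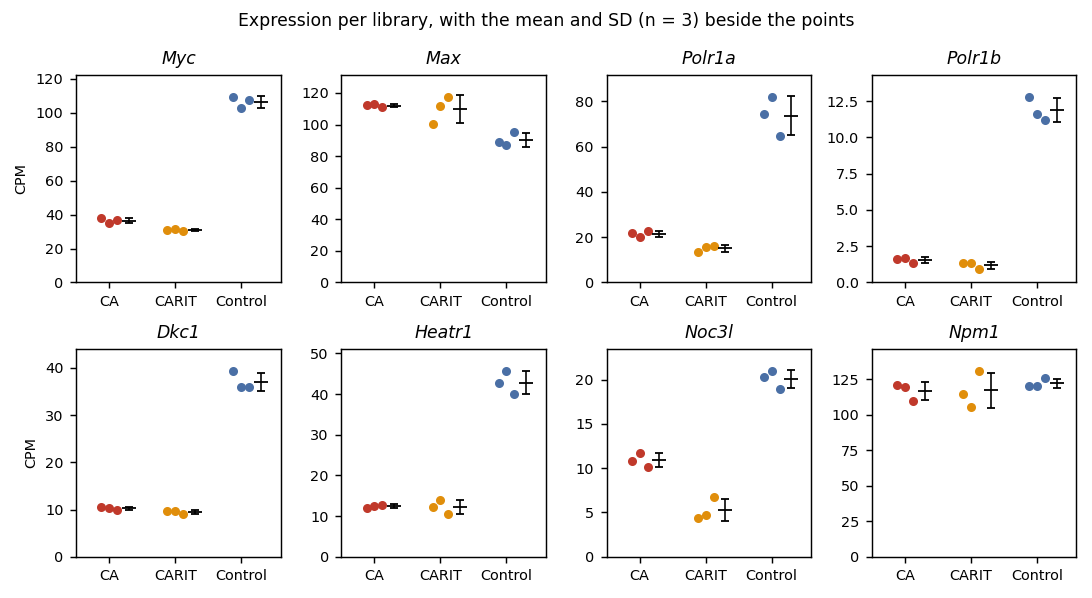
Expression of 8 members in CPM (vertical axes start at 0), with NFAT2-CA, NFAT2-CARIT and Control from left to right. Each point is a library, and the bar beside the points gives the mean and SD of the 3 libraries. Myc stands at 30.2 to 37.8 CPM in the NFAT2 libraries and at 103 to 109 CPM in the Control libraries, Noc3l separates all 3 groups, and Npm1 overlaps in all 3.

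Because the E-box is the site that Myc and Max dimers bind, the promoters of the members were searched for it. RefSeq promoters (build GRCm38.p6) span 250 bases before to 50 bases after a start site, and 38 of the 45 members matched by symbol. Bop1, Fbl, Myc, Npm1, Rrp12, Rrs1 and Tcof1 had no match. The motif searched was CACGTG, which reads the same on both strands. It stood in a promoter of 9 members (23.7%): Ltv1, Max, Mybbp1a, Nle1, Nop2, Pes1, Tsr1, Utp20 and Wdr43. Among the 6978 genes tested that have a RefSeq promoter, 12.6% held it, as did 8.09% of all 27025 genes listed there. By window rather than by gene, the shares were 19.6% of 46 windows, 10.6% of 8918 and 7.15% of 32851. The following promoters belong to the 4 members with an E-box that changed most with NFAT2-CA, so that the place of the site can be read beside their values. They are given from 5′ to 3′ on the strand of the gene, with the E-box in capitals, and are Utp20 (chr10:88826765-88827064, minus strand), Mybbp1a (chr11:72441077-72441376, plus strand), Nop2 (chr6:125131633-125131932, plus strand) and Nle1 (chr11:82908346-82908645, minus strand).
Utp20: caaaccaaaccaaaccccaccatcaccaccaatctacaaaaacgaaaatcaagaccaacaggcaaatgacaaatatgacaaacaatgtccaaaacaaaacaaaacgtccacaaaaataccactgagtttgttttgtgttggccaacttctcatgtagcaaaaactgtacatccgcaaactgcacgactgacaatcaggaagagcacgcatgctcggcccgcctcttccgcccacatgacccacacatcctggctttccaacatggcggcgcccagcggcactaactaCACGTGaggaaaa
Mybbp1a: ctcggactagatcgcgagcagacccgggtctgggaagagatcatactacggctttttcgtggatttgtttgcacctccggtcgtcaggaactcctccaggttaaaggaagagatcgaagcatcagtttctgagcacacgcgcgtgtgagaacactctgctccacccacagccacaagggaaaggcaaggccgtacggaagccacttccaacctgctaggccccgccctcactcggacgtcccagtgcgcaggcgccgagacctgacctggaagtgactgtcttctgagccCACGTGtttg
Nop2: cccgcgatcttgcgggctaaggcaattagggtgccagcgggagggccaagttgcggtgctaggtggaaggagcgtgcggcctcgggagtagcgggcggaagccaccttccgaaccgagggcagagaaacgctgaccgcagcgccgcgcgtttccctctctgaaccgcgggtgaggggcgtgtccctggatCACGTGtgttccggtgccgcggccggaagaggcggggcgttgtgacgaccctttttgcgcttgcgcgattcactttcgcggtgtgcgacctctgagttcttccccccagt
Nle1: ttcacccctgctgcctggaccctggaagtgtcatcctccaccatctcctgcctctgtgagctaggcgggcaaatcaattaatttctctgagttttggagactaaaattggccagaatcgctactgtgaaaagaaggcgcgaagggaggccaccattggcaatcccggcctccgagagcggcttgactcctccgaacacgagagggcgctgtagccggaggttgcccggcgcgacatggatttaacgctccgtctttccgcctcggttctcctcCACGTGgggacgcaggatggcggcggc
The E-box begins 37 bases after the start site in Utp20, 40 bases after it in Mybbp1a and 23 bases after it in Nle1, and 60 bases before it in Nop2 (position -60). With NFAT2-CA over Control these genes changed by -1.37 ± 0.13 for Utp20, -1.37 ± 0.07 for Mybbp1a, -0.91 ± 0.08 for Nop2 and -0.71 ± 0.13 for Nle1. Over all members, with the 1 CPM filter described below, the median log2 fold change with NFAT2-CA over Control was -0.64 for the 9 with an E-box and -0.70 for the 29 without it. With NFAT2-CARIT over Control it was -0.84 for those with an E-box and -0.97 for those without. Max, with an E-box, rose, and Polr1b, with none in its window, had the largest decrease of all members. These are matches of letters and not observed binding.

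What the constitutively active form does to these transcripts was read from NFAT2-CA over Control. Of the 45 members, 40 reached 10 CPM in at least 3 libraries and were tested. With NFAT2-CA over Control, 34 were lower, Max was higher and 5 did not pass (limma, adjusted p under 0.05), while 40.5% of all 9233 genes tested were lower and 31.6% higher. The median log2 fold change was -0.75 over the tested members and -0.07 over all genes tested. Of the 40, 11 reached 10 CPM in every Control library but not in every library of either NFAT2 group, so a member of that kind could pass through its Control values alone. Polr1b, Rrp9, Utp20, Wdr12, Nop16, Rrs1, Ddx18 and Nle1 reached 10 CPM in the Control libraries only. Dkc1, Rcl1 and Ppan reached it in some NFAT2 libraries as well. All 11 were also lower with both vectors over Control at the 1 CPM filter. With the filter lowered to 1 CPM all 45 were tested and no member passed through its Control values alone: 36 were lower, 1 was higher and 8 did not pass, with a median of -0.71, against 36.5% of 13090 genes lower and 29% higher. At the 10 CPM filter, decreases of at least 1 on the log2 scale were called in 13 members, and in 5.39% of all genes tested. Some of these members, Polr1b and Rrs1 among them, had passed that filter through their Control values alone, a route that favours large decreases. In the authors' deposited table, 20 members were lower and none higher at an FDR under 0.05, where 10.4% of the 16500 genes were lower and 11.4% higher, and 1 (Max) was higher at an unadjusted p under 0.05 there. Those not past the threshold in limma were Ncl, Npm1, Nhp2, Pes1 and Gnl3.

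With the form of NFAT2 impaired in AP-1 cooperation the decrease was also broad. NFAT2-CARIT over Control gave 38 lower members of 40, 1 higher (Max) and 1 not past (Npm1), against 43.3% of all genes tested lower and 32.1% higher. The median was -1.04 over these members and -0.09 over all genes tested. At 1 CPM, 42 of 45 were lower, 1 was higher and 2 did not pass, with a median of -0.97, against 41.1% of genes lower and 29.2% higher. At the 10 CPM filter, decreases of at least 1 on the log2 scale reached 20 members, and 7.96% of all genes tested. Polr1b and Rrs1 were again among the members that had passed that filter through their Control values alone, a route that favours large decreases. The share of all genes with such a decrease at the 1 CPM filter was not computed for either vector. The authors' deposited table had 32 members lower and none higher (1 at an unadjusted p under 0.05), beside 13.5% of all genes lower and 12.1% higher. Both comparisons share the Control libraries, so their results for a member are not independent.

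**Figure D3:**
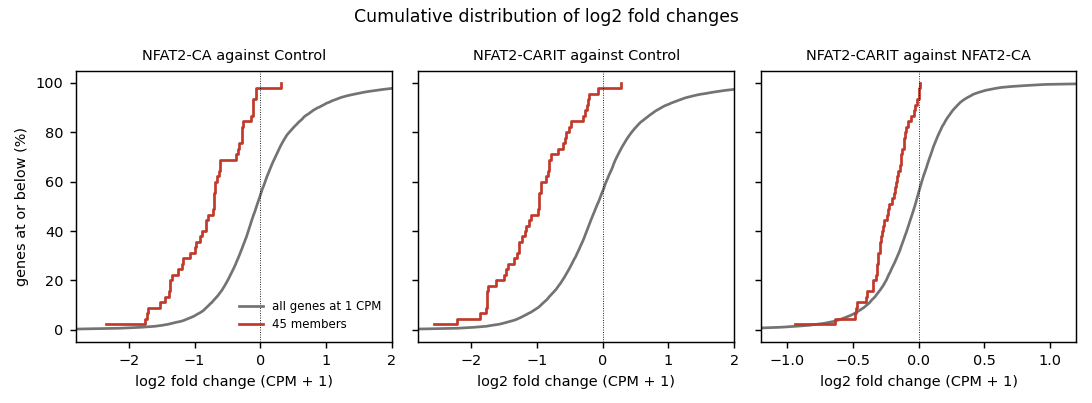
Cumulative share of genes (vertical axis, percent) at or below each log2 fold change (horizontal axis) for the 45 members in red and all 13090 genes at 1 CPM in grey, in the 3 comparisons. Over most of the range the members' curve lies left of the grey curve, with medians of -0.71 beside -0.06 over all genes for NFAT2-CA over Control, -0.97 beside -0.09 for NFAT2-CARIT over Control and -0.23 beside -0.03 for NFAT2-CARIT over NFAT2-CA.

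The genes for RNA polymerase I transcription had the lowest median of the roles. All 6 members were lower with each vector, with a median of -1.22 with NFAT2-CA and -1.49 with NFAT2-CARIT over Control. Of all genes tested, 40.5% were lower with NFAT2-CA and 43.3% with NFAT2-CARIT. Polr1b, a core catalytic subunit of the polymerase, had 1.64, 1.68 and 1.31 CPM with NFAT2-CA, 1.31, 1.32 and 0.902 CPM with NFAT2-CARIT and 12.8, 11.6 and 11.2 CPM with the Control vector. The 6 NFAT2 libraries were all far below the Control libraries, and overlapped each other. Its log2 fold change was -2.34 ± 0.13 with NFAT2-CA (limma, adjusted p = 9.8e-11) and -2.57 ± 0.13 with NFAT2-CARIT over Control (adjusted p = 2.7e-11), the largest of any member in both. By the ratio of means in CPM it was 7.70 times lower with NFAT2-CA and 10.1 times lower with NFAT2-CARIT. Since Polr1b was near 1 CPM in the NFAT2 libraries, the added 1 CPM makes its log2 value smaller than that of the ratio. Polr1b passed the filter through its Control libraries alone.

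Polr1a, the largest subunit of the polymerase, had 22.0, 20.1 and 22.6 CPM with NFAT2-CA, 13.4, 15.8 and 16.2 CPM with NFAT2-CARIT and 74.3, 82.0 and 64.9 CPM with the Control vector. No library of any group overlapped with another group. It fell by 1.72 with NFAT2-CA (SE 0.09, limma, adjusted p = 6.3e-11) and by 2.21 with NFAT2-CARIT over Control (SE 0.09, adjusted p = 2.4e-12) on the log2 scale. Between the active forms it changed by -0.49 ± 0.09 with NFAT2-CARIT over NFAT2-CA (limma, adjusted p = 0.00077). Mybbp1a, a nucleolar Myb-binding protein, changed by -1.37 with NFAT2-CA and -1.77 with NFAT2-CARIT over Control. Ubtf, the factor that keeps ribosomal DNA open for transcription, changed by -1.07 with NFAT2-CA and -1.22 with NFAT2-CARIT. Tcof1, the treacle protein that works beside it, changed by -0.99 with NFAT2-CA and -1.16 with NFAT2-CARIT. Ddx21, an RNA helicase that couples polymerase I transcription to processing, changed least, by -0.70 with NFAT2-CA and -0.87 with NFAT2-CARIT over Control. In CPM, the sum over the 6 genes was 319 to 328 with NFAT2-CA, 278 to 282 with NFAT2-CARIT and 628 to 704 with the Control vector.

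The nucleolar scaffold proteins divided. Nolc1, a chaperone of snoRNPs, had 17.0, 15.8 and 14.9 CPM with NFAT2-CA, 11.6, 14.0 and 12.4 CPM with NFAT2-CARIT and 32.6, 36.4 and 28.7 CPM with the Control vector, and no library of a group overlapped another group. It fell by 0.99 with NFAT2-CA (limma, adjusted p = 1.3e-07) and by 1.29 with NFAT2-CARIT over Control (adjusted p = 3.7e-09). Npm1, nucleophosmin, had 121, 119.7 and 109 CPM in the NFAT2-CA libraries, 115, 106 and 131 CPM in the NFAT2-CARIT libraries and 121, 120.1 and 126 CPM in the Control libraries. The groups overlapped, and its log2 fold change was -0.07 ± 0.07 with NFAT2-CA (limma, adjusted p = 0.41) and -0.06 ± 0.07 with NFAT2-CARIT over Control (adjusted p = 0.42), a value that was 0.021 under TMM scaling. Ncl, nucleolin, the most abundant member in CPM, had 1421, 1392 and 1311 CPM in the NFAT2-CA libraries, 1254, 1237 and 1263 CPM in the NFAT2-CARIT libraries and 1535, 1567 and 1353 CPM in the Control libraries. The NFAT2-CARIT libraries were below every other library, while NFAT2-CA overlapped with Control. Ncl passed with NFAT2-CARIT over Control (-0.24 ± 0.06, limma, adjusted p = 0.0023) and not with NFAT2-CA (-0.11 ± 0.06, adjusted p = 0.13). Without Control replicate 3, the lowest Control library for Ncl, it passed with NFAT2-CA too (-0.17, adjusted p = 0.0045).

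The log2 fold changes of the snoRNP proteins were below 0 with each vector over Control but of unequal size, and Nhp2, Gar1 and Fbl did not pass with NFAT2-CA. Dkc1, the pseudouridine synthase of box H/ACA snoRNPs, had 10.6, 10.3 and 9.99 CPM with NFAT2-CA, 9.63, 9.72 and 9.07 CPM with NFAT2-CARIT and 39.3, 35.9 and 36.0 CPM with the Control vector. Every NFAT2 library was far below every Control library, and the NFAT2 groups lay close together without overlap. Its log2 fold change was -1.75 ± 0.08 with NFAT2-CA (limma, adjusted p = 9.2e-12) and -1.86 ± 0.08 with NFAT2-CARIT over Control (adjusted p = 3.6e-12), and -0.11 ± 0.08 between the active forms (adjusted p = 0.32). Its complex partner Nop10 had 20.1, 20.6 and 19.98 CPM with NFAT2-CA, 16.2, 14.9 and 16.0 CPM with NFAT2-CARIT and 28.0, 30.6 and 36.9 CPM with the Control vector. Nop10 separated all 3 groups, and changed by -0.62 with NFAT2-CA over Control (limma, adjusted p = 1.3e-05), -0.97 with NFAT2-CARIT over Control (adjusted p = 6.1e-08) and -0.35 with NFAT2-CARIT over NFAT2-CA (adjusted p = 0.0075). With NFAT2-CA over Control it did not pass in the authors' deposited table (FDR 0.080). The other partners moved less. Nhp2 was at -0.12 ± 0.10 with NFAT2-CA (adjusted p = 0.31) and fell with NFAT2-CARIT (-0.31 ± 0.10, limma, adjusted p = 0.013) although those groups overlapped, a call that ended without Control replicate 3 (adjusted p = 0.081), under TMM (adjusted p = 0.060) or quantile scaling (adjusted p = 0.080) and in the authors' deposited table (FDR 0.53). Gar1, tested only with the 1 CPM filter, was at -0.28 ± 0.12 with NFAT2-CA (adjusted p = 0.053) and fell by 0.60 with NFAT2-CARIT (adjusted p = 0.00032). Gar1 passed with neither vector in the authors' deposited table (FDR 0.79 with NFAT2-CA and 0.36 with NFAT2-CARIT).

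Among box C/D snoRNP proteins, Rrp9, which binds the snoRNA that guides early cleavage of the precursor, had 3.64, 3.56 and 4.13 CPM with NFAT2-CA, 4.74, 3.05 and 2.71 CPM with NFAT2-CARIT and 10.4, 10.96 and 13.2 CPM with the Control vector. Both NFAT2 groups were below Control and overlapped each other. Rrp9 changed by -1.38 ± 0.15 with NFAT2-CA (limma, adjusted p = 4.5e-07) and by -1.49 ± 0.15 with NFAT2-CARIT over Control (adjusted p = 1.5e-07), and passed the filter through its Control libraries alone. The core proteins Nop56 and Nop58, which share a fold and sit side by side in each particle, differed in size of change: Nop56 changed by -1.18 with NFAT2-CA and -1.27 with NFAT2-CARIT over Control, and Nop58 by -0.38 with NFAT2-CA and -0.67 with NFAT2-CARIT. Nop58 had 32.9, 32.8 and 31.8 CPM with NFAT2-CA, 27.0, 25.2 and 26.8 CPM with NFAT2-CARIT and 40.5, 41.0 and 46.1 CPM with the Control vector. It separated all 3 groups and changed by -0.29 ± 0.07 with NFAT2-CARIT over NFAT2-CA (limma, adjusted p = 0.0035). In the authors' deposited table Nop58 did not pass with NFAT2-CA over Control (FDR 0.25). Fbl, the methyltransferase of these particles, was listed at only 1.4 to 2.9 CPM and fell with NFAT2-CARIT (-0.58 ± 0.14, adjusted p = 0.0013 at the 1 CPM filter), with -0.26 ± 0.14 for NFAT2-CA (adjusted p = 0.11). Fbl passed with neither vector in the authors' deposited table (FDR 0.87 with NFAT2-CA and 0.55 with NFAT2-CARIT).

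Small subunit assembly factors were mostly lower. The 9 tested members were all lower with each vector, with medians of -0.64 with NFAT2-CA and -0.84 with NFAT2-CARIT over Control. Of all genes tested, 40.5% were lower with NFAT2-CA and 43.3% with NFAT2-CARIT. Rcl1 and Utp20 had passed the 10 CPM filter through their Control values alone. At the 1 CPM filter 10 of 11 were lower with each vector, beside 36.5% of all genes with NFAT2-CA and 41.1% with NFAT2-CARIT. Heatr1, which in yeast belongs to the processome that forms on the nascent transcript, had 11.9, 12.5 and 12.8 CPM with NFAT2-CA, 12.2, 13.8 and 10.6 CPM with NFAT2-CARIT and 42.7, 45.6 and 40.1 CPM with the Control vector. The NFAT2 groups overlapped each other and stood far below Control. Its log2 fold change was -1.71 ± 0.09 with NFAT2-CA (limma, adjusted p = 7.9e-11) and -1.74 ± 0.09 with NFAT2-CARIT over Control (adjusted p = 5.5e-11). Utp20, a giant component of the same processome in yeast, had 5.35, 6.33 and 7.72 CPM with NFAT2-CA, 4.58, 4.86 and 4.51 CPM with NFAT2-CARIT and 20.6, 19.2 and 15.1 CPM with the Control vector. Its 3 groups did not overlap, and it changed by -1.37 ± 0.13 with NFAT2-CA (limma, adjusted p = 9.2e-08) and -1.76 ± 0.13 with NFAT2-CARIT over Control (adjusted p = 3.4e-09). Utp20 passed the filter through its Control libraries alone. Wdr75, a WD-repeat factor of early processing, had 19.7, 19.1 and 20.2 CPM with NFAT2-CA, 14.7, 13.3 and 13.7 CPM with NFAT2-CARIT and 23.5, 26.4 and 25.8 CPM with the Control vector, again with no overlap. It changed by -0.34 ± 0.08 with NFAT2-CA (adjusted p = 0.001) and -0.82 ± 0.08 with NFAT2-CARIT over Control (limma, adjusted p = 8.7e-08). In the authors' deposited table Wdr75 did not pass with NFAT2-CA (FDR 0.49).

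The other small subunit factors were mostly lower too. Noc4l changed by -0.89 with NFAT2-CA and -0.97 with NFAT2-CARIT over Control, Rcl1 by -0.79 with NFAT2-CA and -1.10 with NFAT2-CARIT, and Wdr43 by -0.64 with NFAT2-CA and -0.84 with NFAT2-CARIT. Nop14 changed by -0.33 with NFAT2-CA and -0.51 with NFAT2-CARIT, and Tsr1, a GTPase-like factor of late maturation, by -0.29 with NFAT2-CA and -0.56 with NFAT2-CARIT. All of these passed with both vectors in limma. In the authors' deposited table Rcl1, Nop14 and Tsr1 did not pass with NFAT2-CA (FDR 0.11, 0.21 and 0.52), nor did Tsr1 with NFAT2-CARIT (FDR 0.075). Ltv1, a factor on nearly finished small subunits, fell by 0.28 with NFAT2-CA and 0.27 with NFAT2-CARIT, and the last of these did not pass under quantile normalization (adjusted p = 0.056). Neither passed in the authors' deposited table (FDR 0.62 with NFAT2-CA and 0.60 with NFAT2-CARIT). Of the factors tested only at 1 CPM, Rrp12 fell by 1.25 with NFAT2-CA and 1.26 with NFAT2-CARIT. It passed with neither vector in the authors' deposited table (FDR 0.064 with NFAT2-CA and 0.054 with NFAT2-CARIT). Bysl, another factor of late maturation, was at -0.06 ± 0.14 with NFAT2-CA and -0.20 ± 0.14 with NFAT2-CARIT over Control, and passed in neither comparison (limma, adjusted p = 0.71 for NFAT2-CA and 0.2 for NFAT2-CARIT).

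Large subunit assembly factors made the largest group, with 12 of 14 tested members lower with NFAT2-CA and 14 of 14 with NFAT2-CARIT. Their medians were -0.71 with NFAT2-CA and -1.05 with NFAT2-CARIT over Control. Of all genes tested, 40.5% were lower with NFAT2-CA and 43.3% with NFAT2-CARIT. Wdr12, Nop16, Rrs1, Ddx18, Nle1 and Ppan had passed the 10 CPM filter through their Control values alone, a route that favours decreases. At the 1 CPM filter 13 of 15 were lower with NFAT2-CA and 15 of 15 with NFAT2-CARIT, beside 36.5% and 41.1% of all genes. Bop1, Pes1 and Wdr12 form a trimer that is needed to process the precursor of the large subunit RNAs, and they moved by different amounts. Bop1 had 12.01, 11.5 and 10.96 CPM with NFAT2-CA, 12.3, 11.6 and 10.7 CPM with NFAT2-CARIT and 33.7, 32.8 and 32.7 CPM with the Control vector. The NFAT2 groups overlapped each other far below Control, and the log2 fold change was -1.45 ± 0.08 with NFAT2-CA (limma, adjusted p = 1e-10) and -1.45 ± 0.08 with NFAT2-CARIT over Control (adjusted p = 9.5e-11). Pes1 had 25.4, 25.8 and 24.4 CPM with NFAT2-CA, 20.2, 20.6 and 18.1 CPM with NFAT2-CARIT and 28.2, 28.0 and 27.6 CPM with the Control vector. Its groups did not overlap, yet the change was -0.14 ± 0.07 with NFAT2-CA (adjusted p = 0.084) and -0.49 ± 0.07 with NFAT2-CARIT over Control (limma, adjusted p = 1.2e-05). Pes1 passed with neither vector in the authors' deposited table (FDR 0.82 with NFAT2-CA and 0.16 with NFAT2-CARIT). Wdr12 changed by -0.66 with NFAT2-CA and -0.79 with NFAT2-CARIT, and passed in both in limma. In the authors' deposited table it passed in neither (FDR 0.29 with NFAT2-CA and 0.15 with NFAT2-CARIT).

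Noc3l, which in yeast joins Noc2 on early large subunit particles, showed the largest gap between the active forms of any member. It had 10.9, 11.7 and 10.1 CPM with NFAT2-CA, 4.35, 4.72 and 6.71 CPM with NFAT2-CARIT and 20.2, 20.9 and 18.9 CPM with the Control vector, and the 3 groups lay apart. Its log2 fold change was -0.82 ± 0.12 with NFAT2-CA (limma, adjusted p = 1.6e-05) and -1.77 ± 0.12 with NFAT2-CARIT over Control (adjusted p = 1.6e-09). With NFAT2-CA over Control Noc3l did not pass in the authors' deposited table (FDR 0.091). Noc2l, the relative of its yeast partner, changed by -1.20 with NFAT2-CA and -1.47 with NFAT2-CARIT. Rrs1 changed by -1.35 with NFAT2-CA and -1.62 with NFAT2-CARIT, Nle1 by -0.71 with NFAT2-CA and -1.35 with NFAT2-CARIT, and Nop2, a methyltransferase of large subunit RNA, by -0.91 with NFAT2-CA and -0.97 with NFAT2-CARIT. Of these, Nle1 did not pass with NFAT2-CA in the authors' deposited table (FDR 0.27). The remaining factors Nop16, Ebna1bp2, Nip7, Ddx18 and Ppan changed by -0.83 to -0.62 with NFAT2-CA and by -1.18 to -0.82 with NFAT2-CARIT over Control, and passed in both in limma. In the authors' deposited table all of them passed with NFAT2-CARIT over Control, but only Ebna1bp2 passed with NFAT2-CA. Gnl3, the nucleolar GTPase nucleostemin, was at -0.12 ± 0.09 with NFAT2-CA (adjusted p = 0.26) and fell with NFAT2-CARIT (-0.22 ± 0.09, limma, adjusted p = 0.033). That call ended without Control replicate 3 (adjusted p = 0.13), without NFAT2-CARIT replicate 1 (0.088) or replicate 2 (0.086), and under TMM (0.16) or quantile scaling (0.22). In the authors' deposited table Gnl3 did not pass with NFAT2-CARIT over Control (FDR 0.67). Mrto4, which has 2 named pseudogenes that could share its reads, fell by 0.70 with NFAT2-CA and 0.93 with NFAT2-CARIT at the 1 CPM filter. Mrto4 passed with neither vector in the authors' deposited table (FDR 0.44 with NFAT2-CA and 0.20 with NFAT2-CARIT). Pseudogenes were searched for only under the name of a member, so copies of any member under other names would have been missed.

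The last comparison sets the active form with the RIT substitutions against the one without them. Nfatc1 was also lower with NFAT2-CARIT than in the NFAT2-CA libraries (-0.53 ± 0.08, limma, adjusted p = 7.2e-05), so the substitutions and the level of the transcript cannot be told apart. With NFAT2-CARIT over NFAT2-CA, 21 of 40 tested members were lower, none was higher and 19 did not pass (limma, adjusted p under 0.05), beside 18.9% of all genes tested lower and 15.1% higher. At an unadjusted p under 0.05 the count higher was also 0. The median was -0.21 over the tested members and -0.02 over all genes tested, and no member was called lower by 1 or more on the log2 scale, as 0.942% of all genes tested were. At 1 CPM 20 of 45 were lower and 0 higher, with a median of -0.23, where 16.7% of genes were lower and 11.9% higher. Without NFAT2-CARIT replicate 2 the count lower was 13, beside 14.5% of all genes tested. In the authors' deposited table no member was called in either direction at an FDR under 0.05, where 272 genes were lower (1.65%) and 196 higher (1.19%). At an unadjusted p under 0.05 that table had 3 members lower and 0 higher, and its log2 ratio was below 0 for 42 of the 45. The shares of all genes for these 2 counts were not computed. The median log2 ratio there was also below 0 over all genes, at -0.05, beside -0.25 over the members.

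Members past the threshold came from every role. Noc3l was lower by -0.94 ± 0.12 (limma, adjusted p = 2.7e-05) and Nle1 by -0.64 ± 0.13 (adjusted p = 0.0016). Wdr75 was at -0.47 ± 0.08 (adjusted p = 0.00025) and Nolc1 at -0.31 ± 0.10 (limma, adjusted p = 0.021). Pes1, which had not passed with NFAT2-CA over Control, was at -0.34 ± 0.07 (adjusted p = 0.0016). These calls did not all stand equally firmly. When each of the 6 libraries was left out in turn, 11 of the 21 calls held each time: Myc, Polr1a, Mybbp1a, Nop58, Nop10, Wdr75, Pes1, Nop16, Noc2l, Noc3l and Nle1. The other 10, Nolc1 and Utp20 among them, were lost at least once. At the other end, Bop1 differed by 0.0043 ± 0.08, Ltv1 by 0.01 ± 0.08, Npm1 by 0.0025 ± 0.07 and Heatr1 by -0.03 ± 0.09, with no call.

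**Figure D4:**
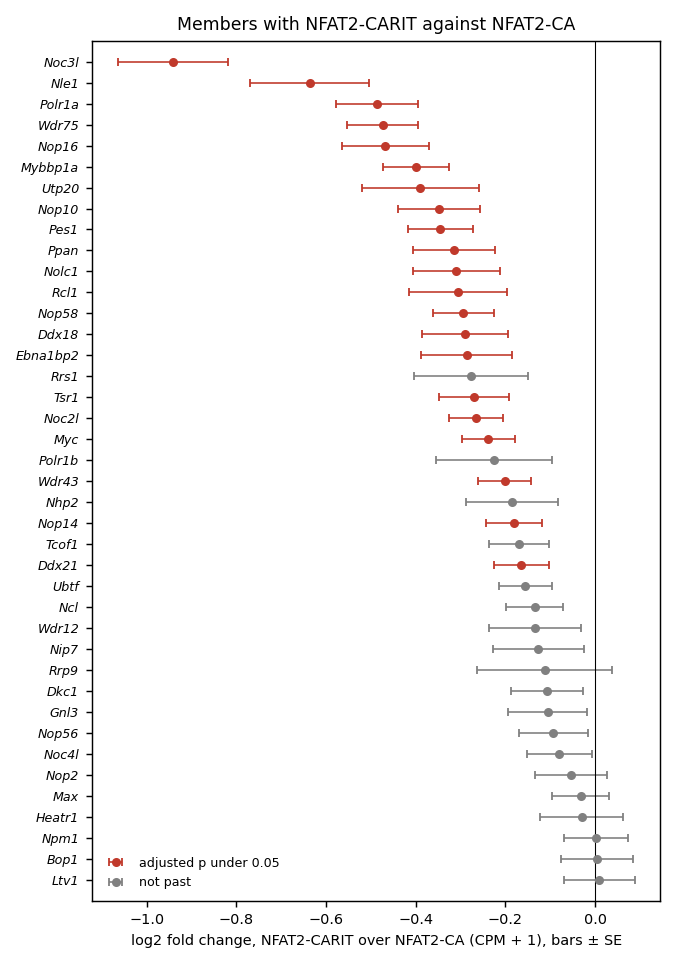
Log2 fold change of NFAT2-CARIT over NFAT2-CA (horizontal axis, on log2(CPM + 1)) for the 40 tested members, with bars of 1 standard error. Red members passed at an adjusted p under 0.05 and grey members did not. All 21 red members lie below 0, from Noc3l at -0.94 to Ddx21 at -0.16, and Ltv1 at 0.01 is the highest value.

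Most tested genes of the same pathway outside the members were lower as well, with all genes tested at medians of -0.07 with NFAT2-CA and -0.09 with NFAT2-CARIT over Control. The shares over all genes tested were 40.5% lower and 31.6% higher with NFAT2-CA, and 43.3% lower and 32.1% higher with NFAT2-CARIT over Control. In the list of other small subunit assembly factors 25 of 40 tested genes were lower and 4 higher with NFAT2-CA, and 28 were lower and 4 higher with NFAT2-CARIT over Control, with medians of -0.37 with NFAT2-CA and -0.47 with NFAT2-CARIT. With NFAT2-CA, Wdr46 changed by -1.25 and Nol6 by -1.04. The kinase Riok1, which acts late on the small subunit, rose by 1.25 with NFAT2-CA. Utp14b had 26.9, 26.2 and 42.4 CPM with NFAT2-CA, 21.6, 22.0 and 22.3 CPM with NFAT2-CARIT and 4.84, 4.63 and 4.04 CPM with the Control vector and rose by 2.54 with NFAT2-CA and 2.06 with NFAT2-CARIT over Control, but it shares exons with Acsl3 on the same strand, so its reads are uncertain. Nat10, an RNA acetyltransferase, had 58.9, 57.8 and 58.0 CPM with NFAT2-CA, 25.3, 24.3 and 26.8 CPM with NFAT2-CARIT and 62.0, 61.9 and 63.4 CPM with the Control vector. Its log2 fold change was -0.10 ± 0.06 with NFAT2-CA (limma, adjusted p = 0.14) and -1.26 ± 0.06 with NFAT2-CARIT over Control (adjusted p = 1e-11), and the difference of -1.16 ± 0.06 between the active forms was itself called (limma, adjusted p = 7.1e-10).

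The next 3 lists of the pathway are given against those same shares, 40.5% of all genes tested lower with NFAT2-CA and 43.3% with NFAT2-CARIT. In the list of other large subunit factors 30 of 47 tested genes (63.8%) were lower and 2 higher with NFAT2-CA, and 35 were lower and 3 higher with NFAT2-CARIT, with medians of -0.35 with NFAT2-CA and -0.50 with NFAT2-CARIT. The methyltransferase gene Ftsj3 changed by -1.94 with NFAT2-CA and -2.18 with NFAT2-CARIT. Mdn1, which encodes the giant ATPase that strips factors from the large subunit, changed by -1.92 with NFAT2-CA and -2.19 with NFAT2-CARIT. Of 16 tested genes of the RNA exosome and RNase MRP, which trim and cut the precursor, 13 (81.2%) were lower and 2 higher with NFAT2-CA, and 12 lower and 1 higher with NFAT2-CARIT (medians -0.44 with NFAT2-CA and -0.64 with NFAT2-CARIT). Exosc2, a cap subunit of the exosome, changed by -1.29 with NFAT2-CA and -1.37 with NFAT2-CARIT. Of 26 other subunits and factors of RNA polymerases I and III, 15 (57.7%) were lower and 2 higher with NFAT2-CA, and 17 lower and 1 higher with NFAT2-CARIT (medians -0.33 with NFAT2-CA and -0.30 with NFAT2-CARIT). With NFAT2-CA the polymerase I subunit Polr1e changed by -1.16 and the polymerase III subunit Polr3e by -1.07.

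Genes known as Myc targets outside ribosome assembly went both ways. Of 25 tested, 13 were lower and 9 higher with NFAT2-CA, and 14 lower and 7 higher with NFAT2-CARIT over Control. With NFAT2-CA that made 52% lower and 36% higher, beside 40.5% lower and 31.6% higher among all genes tested. Ccnd2, a cyclin that drives cell cycle entry, averaged 251 ± 7.74 CPM with NFAT2-CA, 187 ± 6.61 CPM with NFAT2-CARIT and 643 ± 48.8 CPM with the Control vector (SD, n = 3 each). The translation factor Eif4e averaged 41.0 ± 1.42 CPM with NFAT2-CA, 42.7 ± 2.36 CPM with NFAT2-CARIT and 21.1 ± 1.72 CPM with the Control vector (SD, n = 3 each) and rose by 0.93 with NFAT2-CA over Control. The polyamine enzyme Odc1 rose by 0.38 ± 0.07 with NFAT2-CARIT over NFAT2-CA (limma, adjusted p = 0.00047). Among 10 tested partners in the Myc and Max network, 3 were lower and 2 higher with each vector over Control, below the shares of all genes tested (40.5% lower and 31.6% higher with NFAT2-CA, 43.3% lower and 32.1% higher with NFAT2-CARIT). At the 1 CPM filter, 3 of 13 were lower and 3 higher with NFAT2-CA, and 4 were lower and 4 higher with NFAT2-CARIT over Control, where Mycn and Mxd3 were among the higher. Mycn, a relative of Myc, had 1.10 to 1.90 CPM with NFAT2-CARIT and up to 0.127 CPM with the Control vector. It reached 1 CPM in no Control library, so it passed that filter only through NFAT2 libraries, and its values lay near the floor. Mxi1, an antagonist that pairs with Max in place of Myc, had 340.1, 329.5 and 314 CPM with NFAT2-CA, 295, 302 and 297 CPM with NFAT2-CARIT and 153, 145 and 134 CPM with the Control vector. Each NFAT2 library was above every Control library, and Mxi1 rose by 1.18 ± 0.06 with NFAT2-CA (limma, adjusted p = 2.7e-11) and 1.05 ± 0.06 with NFAT2-CARIT (adjusted p = 1.1e-10). Mxd1, another antagonist of that family, averaged 70.3 ± 3.17 CPM with NFAT2-CA, 104 ± 3.63 CPM with NFAT2-CARIT and 99.6 ± 3.41 CPM with the Control vector (SD, n = 3 each). It fell with NFAT2-CA (-0.50 ± 0.06, limma, adjusted p = 9.7e-07) and differed between the active forms by 0.55 ± 0.06, NFAT2-CARIT over NFAT2-CA (adjusted p = 2.2e-06).

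**Figure D5:**
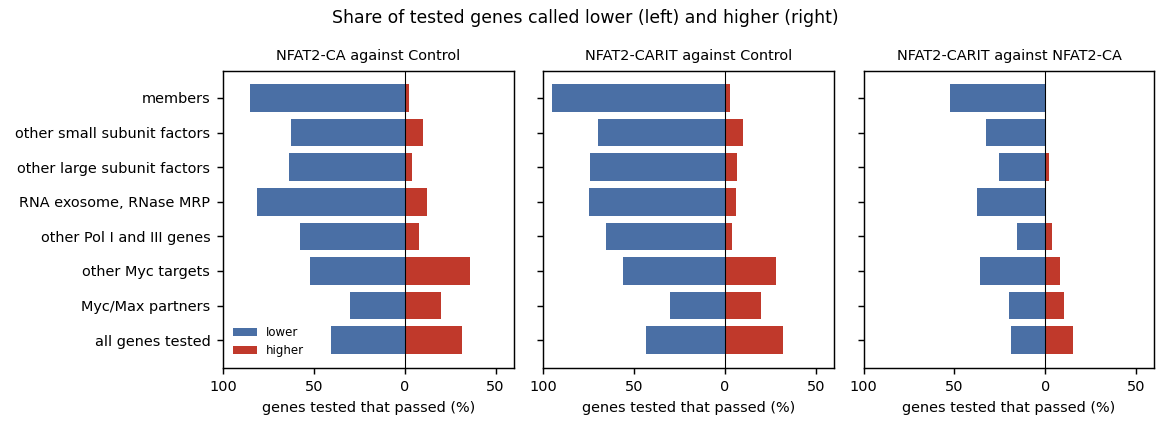
Share of tested genes called lower (blue, to the left) and higher (red, to the right), in percent, for the members, the 6 pathway lists and all genes tested, in the 3 comparisons. With NFAT2-CA over Control 85% of the tested members are lower, as are 81.2% of the exosome and RNase MRP list, 52% of the other Myc targets and 40.5% of all genes tested.

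With NFAT2-CARIT over NFAT2-CA 18.9% of all genes tested were lower and 15.1% higher. Among the other small subunit factors 13 of 40 were lower and 0 higher in limma, with 2 higher at an unadjusted p under 0.05. Among the other large subunit factors 12 of 47 were lower and 1 higher, in the exosome and RNase MRP list 6 of 16 lower and 0 higher (limma, 1 at an unadjusted p under 0.05), and among the other polymerase genes 4 of 26 lower and 1 higher. Among the other Myc targets 9 of 25 were lower and 2 higher, and among the network partners 2 of 10 lower and 1 higher, which at the 1 CPM filter were 2 lower and 2 higher of 13. The shares lower of 15.4% among the other polymerase genes and 20% among the network partners lay near that of all genes tested. Ddx24 (-0.60), Exosc8 (-0.62) and Cad (-0.54) had large decreases within their lists.

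Some members carry another kind of product. By GENCODE M21, 8 members host snoRNAs on their own strand: Nop56, Nop58, Ncl, Wdr43, Gnl3, Tsr1, Ppan and Dkc1, with 5 in Nop56 and 4 in Nop58. The median log2 fold change of these hosts was -0.50 with NFAT2-CA and -0.75 with NFAT2-CARIT over Control, against -0.79 with NFAT2-CA and -1.10 with NFAT2-CARIT for the 37 other members. The median between the active forms was -0.17 for the hosts and -0.23 for the others. The hosts held both a strong decrease (Dkc1) and the weak ones of Ncl and Gnl3, and the snoRNAs were not measured apart from them. Exons of 17 members overlap exons of a gene on the opposite strand, Heatr1 with Lgals8, Dkc1 with Mpp1 and Bop1 with Mroh1 among them, and without a stated use of strand the reads of such pairs cannot be told apart. Myc, Max, Polr1b, Nolc1, Npm1, Nop58, Nop10, Utp20, Wdr75 and Noc3l have no such overlap.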

How the data were processed

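RNA from 9 libraries of primary mouse CD4+ T cells was read in pairs, per the labels' protocols. The deposited expression file holds CPM values that sum to 1 fixed total per library, and 0.0001 stands added to each value by the authors. The authors' deposited table gives a p-value, an FDR, a ratio of means and its log2 value for each comparison, per the file headers. The submitters' processing notes name mm10, Partek 10 and DESeq2. Not given in the sources used here were the aligner, the annotation and the use of strand.

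Low values lie on steps that gave the depth of each library. Of the values up to 1 CPM, 82.1% to 84.8% came out as whole reads (within 0.1 read), under the 95% needed, so reads were not rebuilt. The replicates of a group were not copies of each other (median chi-square of 1.28 to 3.17 over genes). Genes with at least 10 CPM in at least 3 libraries (9233) were tested on log2(CPM + 1) by limma (version 3.58.1, R 4.3.3). The model had a mean per group over all 9 libraries, with trend and robust settings. P-values were adjusted by Benjamini-Hochberg over all genes tested and called under 0.05, and the test was checked on simulated data. A fold change on this scale understates the change of low genes. Coordinates came from GENCODE M21 and promoters from RefSeq, read with Python 3.11.15 and pandas 2.3.3.

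The members and lists (the members' roles, the 6 pathway lists and the cell type markers) were chosen with earlier results of these data known. Values in every library are given for Myc and Max and, per role, for the called member with the largest change in each comparison. In each pathway list at most the 4 called genes with the largest change per comparison are named. Library values of Ncl, Npm1, Pes1 and the list genes, and the mention of Thy1, Mycn and Mxd3, were added after their values were seen. Alternatives were a pseudocount of 0.5 or 5 CPM, a filter of 1 CPM, no filter, TMM and quantile scaling, a replicate block, each library left out, only the 6 libraries compared and the authors' table.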

Additional observations from a re-analysis of the deposited data

How the results depend on the processing

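Under every alternative run the medians of all members stayed below 0 in the 3 comparisons. With NFAT2-CA over Control the median was -0.79 with a pseudocount of 0.5, -0.63 with a pseudocount of 5, -0.71 with a filter of 1 CPM or no filter, -0.70 with TMM factors, -0.83 with quantile normalization and -0.81 in the authors' deposited table, which had 20 members lower and 0 higher. With NFAT2-CARIT over Control it was -0.85 with a pseudocount of 5, -0.97 with a filter of 1 CPM or no filter, -0.96 with TMM factors and -0.94 with quantile normalization, and the authors' deposited table had 0 members higher. With NFAT2-CARIT over NFAT2-CA it was -0.16 with a pseudocount of 5 or quantile normalization and -0.25 in the authors' deposited table, which had 0 members lower and gave Myc -0.25 at an FDR of 1. The cause of these shifts was not tested.

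With each library left out in turn, the count of members lower was 26 to 34 with NFAT2-CA over Control, 28 to 38 with NFAT2-CARIT over Control and 13 to 20 with NFAT2-CARIT over NFAT2-CA. The shares of all genes tested that were lower were then 36.1% to 39.1%, 39.8% to 42.6% and 14.3% to 17.6%, in the same order. The medians of the members were -0.78 to -0.71 with NFAT2-CA over Control, -1.07 to -0.95 with NFAT2-CARIT over Control and -0.23 to -0.18 with NFAT2-CARIT over NFAT2-CA. Leaving out a Control library left 32 members tested, since the others no longer reached 10 CPM in 3 libraries. TMM factors moved the median of all genes tested by under 0.1 and gave 34 members lower with NFAT2-CA over Control, 36 with NFAT2-CARIT over Control and 17 with NFAT2-CARIT over NFAT2-CA. Of all genes tested, 35.6%, 37.6% and 16.8% were lower in the same order.

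Values that changed sign were called in neither setting. Under quantile normalization, with NFAT2-CARIT over NFAT2-CA, Polr1b was at 0.11, Npm1 at -0.018, Rrp9 at 0.26, Dkc1 at 0.022, Heatr1 at 0.064, Wdr12 at 0.14, Nop2 at 0.0042 and Rrs1 at 0.036. Npm1 with NFAT2-CARIT over Control was at 0.021 with TMM factors and at -0.15 to 0.0051 with each library left out. With NFAT2-CARIT over NFAT2-CA and each library left out, Max ran from -0.083 to 0.031, Npm1 from -0.079 to 0.072, Rrp9 from -0.30 to 0.014, Heatr1 from -0.12 to 0.062, Ltv1 from -0.049 to 0.042, Bop1 from -0.037 to 0.051 and Nop2 from -0.15 to 0.022.

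Deviations from the group means correlated at -0.24 to 0.31 between same-numbered libraries and at -0.377 to 0.385 between differently numbered libraries of 2 groups. With 3 libraries per group this cannot decide whether the numbers pair them. With the replicate number as a block 34 members were lower with NFAT2-CA over Control, 38 with NFAT2-CARIT over Control and 19 with NFAT2-CARIT over NFAT2-CA, where Utp20 and Rcl1 no longer passed. Under that block 39.6%, 43% and 17.6% of all genes tested were lower in the same order. Depth limits the low members, such as Fbl at 1.4 to 2.9 CPM.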
